A study of Mus musculus with 28 samples.

Results

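Dividing cells switch on a shared set of genes as they copy their DNA and separate their chromosomes, and 35 genes of that set were followed here in the ventricles of mice with and without the desmosome gene Pkp2 in heart muscle. The genes were taken by name from the table of 39152 gene symbols, and all 35 were found and passed the filter on low counts in both ventricles. They fall into 9 groups by role, from the proliferation marker Ki-67 (Mki67) through replication and mitotic kinases to cytokinesis. The series held 28 libraries of bulk RNA sequencing from 16 mice, with 16 of left ventricle (LV) and 12 of right ventricle (RV), and both ventricles were sequenced in 12 animals.

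All animals were of the C57BL6 strain and carried Pkp2 fl/fl. The WT group held Cre-negative littermates given HBSS, a buffer, with 5 LV and 3 RV libraries. The cKO group carried αMyHC-Cre-ER(T2), which is active in heart muscle cells, and was given HBSS and tamoxifen, with 4 LV and 4 RV libraries. In the 3E13 and 6E13 groups, cKO animals got TN-401, an AAV9 vector with human PKP2, at 3E13 or 6E13 vg/kg by a single retro-orbital injection 1 week before tamoxifen. The 3E13 group had 4 LV and 2 RV libraries and the 6E13 group had 3 LV and 3 RV libraries. Per the study, hearts for sequencing were taken 9 weeks after tamoxifen, in a study of about 10 weeks. In other experiments of the study, vehicle-treated cKO mice did not live that long. Whether the cKO hearts here came from longer survivors or were taken earlier was not established. Animals of mixed ages were used. Their ages were not analysed here. A library came from 1 ventricle of 1 animal, named here by the animal's number in the labels.

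Cyclins and their kinases drive a cell from one phase to the next. Entry into DNA synthesis is opened by E2F factors and cyclin E. The MCM helicase and the clamp PCNA then serve the copying of the genome, and cyclin A and cyclin B with CDK1 start mitosis. Mitotic genes are held off in resting cells by a repressor complex that acts through promoter elements called CHR, and the MuvB complex with B-MYB and FOXM1 switches them on. Adult heart muscle cells seldom divide, and fibroblasts, macrophages and endothelial cells of a damaged heart can. In bulk tissue, fewer or more cells of a type and less or more RNA per cell cannot be told apart.

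Promoter strings were counted over the members, and the promoters of 4 members picked for display are given as examples. The RefSeq table used (GRCm38.p6) held 31 windows for 29 of the 35 members, each from 250 bases before to 50 bases after a gene's start, and Mcm4, Tpx2, Aurkb, Ccne2, Kif20a and Ccna2 had none. The windows were searched on both strands for CHR (TTTGAA), for E2F strings (TTCCCGC in one form, TTCGCGC in another, TTGCCGC in the next and TTGGCGC in the last) and for CCAAT, the box bound by NF-Y. CHR occurred in 16 of the 31 members' windows (51.6%) and in 17.9% of all 32851 windows. CCAAT occurred in 80.6% against 37.4%, E2F strings in 29.0% against 9.57%, and CHR together with CCAAT in 48.4% against 6.95%. CHR was found in 4 of the 5 windows of mitotic cyclins and kinases and in 1 of the 7 of the replication helicase and clamp, while E2F strings were found in 2 and 5 of them. Printed here are the 150 bases before the start of Mki67 (chr7:135318109-135318258), Cdk1 (chr10:69188743-69188892), Mcm6 (chr1:128287443-128287592) and Cenpf (chr1:189420284-189420433), all on the minus strand and read 5′ to 3′, with GRCm39 positions from an exact match to that genome. Capitals mark CHR, E2F and CCAAT strings on either strand, and strings that touch or overlap run together. Mki67 and Cdk1 were chosen as mitotic genes with CHR, Mcm6 as a replication gene with E2F strings, and Cenpf because its RNA was lower in cKO hearts.
Mki67: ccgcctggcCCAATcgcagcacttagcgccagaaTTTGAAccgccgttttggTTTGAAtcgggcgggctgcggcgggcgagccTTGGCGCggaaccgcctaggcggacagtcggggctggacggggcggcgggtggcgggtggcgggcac
Cdk1: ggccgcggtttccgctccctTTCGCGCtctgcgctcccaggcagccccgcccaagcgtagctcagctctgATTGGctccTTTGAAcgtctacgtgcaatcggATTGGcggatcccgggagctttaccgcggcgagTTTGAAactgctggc
Mcm6: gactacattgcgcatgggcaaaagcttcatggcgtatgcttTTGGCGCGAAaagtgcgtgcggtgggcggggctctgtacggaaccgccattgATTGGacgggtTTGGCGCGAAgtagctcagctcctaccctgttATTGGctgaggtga
Cenpf: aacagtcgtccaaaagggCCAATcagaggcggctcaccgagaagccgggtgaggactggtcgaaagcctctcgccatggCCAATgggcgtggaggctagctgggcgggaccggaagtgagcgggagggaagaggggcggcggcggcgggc
In these stretches Mki67 and Cdk1 hold 2 CHR each beside E2F and CCAAT strings, Mcm6 holds 4 E2F and 2 CCAAT strings and no CHR, and Cenpf holds CCAAT alone, with 1 CHR elsewhere in its 300-base window. A match describes letters and not a bound site.

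Libraries held between 19364737 and 39381144 counts. Mouse Pkp2, the deleted gene, stood at 103, 110.0, 111, 117 and 121 CPM in WT LV and at 29.2, 42.0, 44.9 and 55.2 CPM in cKO LV, with treated LV libraries between 31.8 and 44.9 CPM, and WT was likewise above all other groups in RV. Levels are given in CPM, counts scaled to the TMM-adjusted size of each library. Markers of other cells differed between groups. The 11 macrophage and monocyte markers found summed to between 120.2 and 147 CPM in WT LV and between 282 and 829 CPM in cKO LV, and to between 154 and 186 CPM and between 479.8 and 845 CPM in RV. The 8 fibroblast markers summed to between 969 and 1239 CPM in WT LV and between 3101 and 5406 CPM in cKO LV. By edgeR 9 of the 11 macrophage markers tested rose in each ventricle, and 6 of 8 fibroblast markers in LV and 8 of 8 in RV. For comparison, 19.7% of all genes rose in LV and 19.8% in RV. The 7 cardiomyocyte markers went from between 35216 and 38319 CPM in WT LV to between 10652 and 27030 CPM in cKO LV, where 5 of the 7 fell, and all 7 fell in RV. Among all genes, 16.1% fell in LV and 17.6% in RV.

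A pair of cKO libraries stood apart for the cell cycle genes. In LV, animal 177 was the highest cKO library for 34 of the 35 members, and in RV animal 264 was the highest for 31. The 34 members without Cenpf summed to 103, 129, 184 and 554 CPM in cKO LV, with animal 177 at the top, and to between 86.6 and 117 CPM in WT LV. In RV they summed to 133, 136, 209 and 366 CPM in cKO, with animal 264 at the top, and to between 87.8 and 112 CPM in WT. Animal 177 also had the fewest cardiomyocyte counts of any LV library (10652 CPM) and the highest sums of macrophage and neutrophil markers (829 and 81.0 CPM, against 1.96 to 6.33 CPM of neutrophil markers in the other cKO LV libraries). Most of its 81.0 CPM came from 1 gene, Csf3r (60.0 CPM), with S100a8 at 11.0 CPM and S100a9 at 9.02 CPM. Ly6g, a defining neutrophil marker, was at 0 in every library. In RV, animals 180 and 257 stood apart by atrial muscle markers, which summed to 1287 and 1726 CPM against 187 and 344 CPM in the other 2 cKO libraries. The part these cells play in the cell cycle values was not tested.

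**Figure D1:**
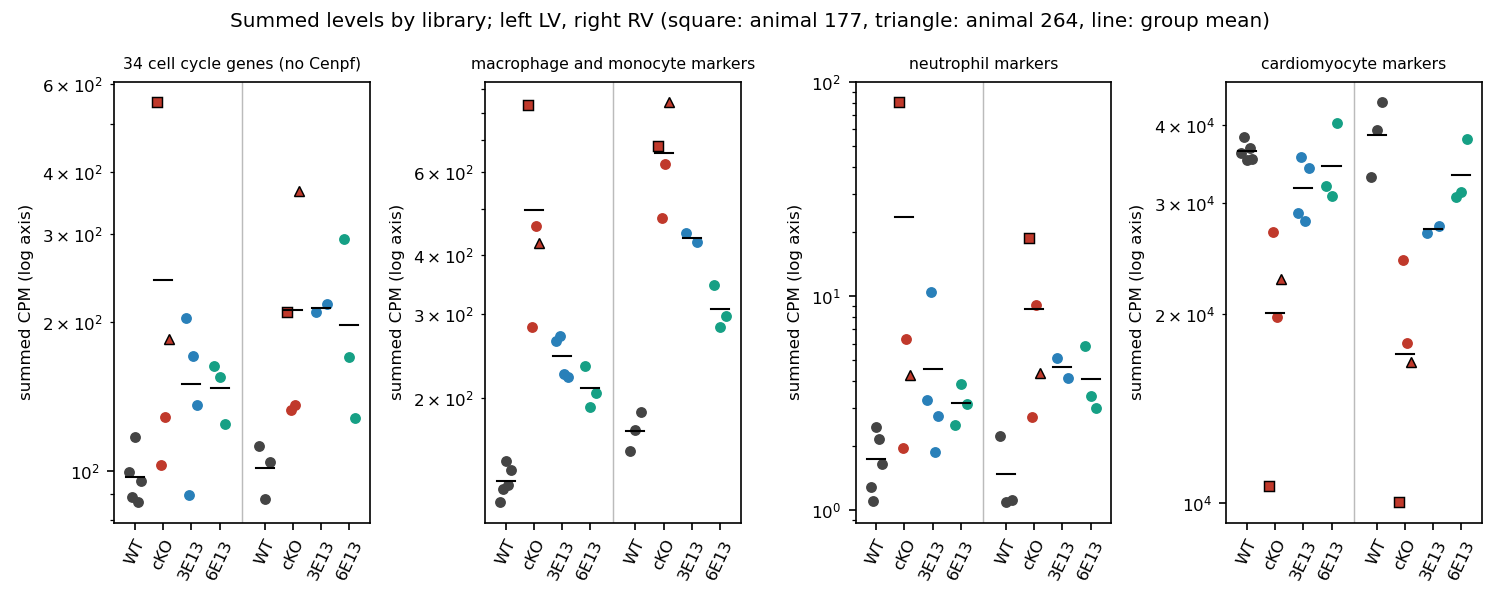
Summed CPM in every library (log axis) of the 34 cell cycle genes without Cenpf, of macrophage and monocyte markers, of neutrophil markers and of cardiomyocyte markers, with WT, cKO, 3E13 and 6E13 by ventricle (LV first, then RV) and a line at the group mean. Animal 177 (square) reaches 554 CPM for the cell cycle genes in LV and animal 264 (triangle) reaches 366 CPM in RV.

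In control hearts nearly all of these genes were barely present. Per transcript length, the mean level in WT LV was 15.2 TPM for Pcna, which also serves DNA repair, 8.55 TPM for Cenpa, the centromere's histone, and 4.29 TPM for Cenpf, and it was 3.60 TPM or less for the other 32. Mki67 stood at 0.593 TPM, Plk1 at 0.146 TPM and Kif23, a motor of the central spindle, at 0.0446 TPM. At such levels a WT library could hold a handful of counts, as for Kif23 with 0, 0, 3, 4 and 23 counts, and folds of the rarest members rest on the prior count of the fit.

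The first comparison set cKO hearts beside WT hearts. The groups differ by Cre as well as by Pkp2, and possibly by time of harvest. The effects of these cannot be told apart here. In cKO LV, 20 of the 35 members rose and 1, Cenpf, fell by edgeR's quasi-likelihood test, 57.1% and 2.86% of the members, against 19.7% and 16.1% of all 16410 genes tested. In RV, 21 rose and 2, Cenpf and Cenpa, fell, 60.0% and 5.71% of the members, against 19.8% and 17.6% of 17307 genes. The median log2 fold change of the members was 1.79 in LV and 1.68 in RV, and that of all genes was 0.05 and 0.06. Every cKO library lay above every WT library for 7 members in LV, where 14.2% of all genes did so, and for 20 in RV, where 21.2% did. Every cKO library lay below every WT library for 1 member in LV and 2 in RV, against 14.4% and 19.1% of all genes. In LV, animal 180 was the lowest cKO library for 23 members. The TPM scale here is limma on log2(TPM + 1), where adding 1 shrinks the folds of genes with few TPM, Mki67 and Plk1 among them. On the TPM scale the median of all genes rose by 0.37 in LV and 0.54 in RV. The members' median there was 0.89 and 0.99.

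These counts leaned on single libraries. Without cKO animal 177, 7 members rose and 1 fell in LV, all among the 21 called with it, and the members' median was 0.85. Leaving out WT animal 637, WT animal 647 or cKO animal 264 from RV left 7, 10 and 12 members higher and the same 2 lower. With animals 177 and 264 both left out, a setting chosen after seeing the data, 2 rose and 1 fell in LV and 3 rose and 2 fell in RV. Mki67, Ccnb1, Ccnb2, Cdk1, Bub1b, Cenpe, Cenpf and Anln were called in LV whichever single library was left out of the 16. E2f1, Mcm3, Plk1, Bub1b, Cenpa, Cenpf, Prc1 and Anln were called in RV whichever was left out of the 12. Each other member called was lost without at least 1 library. Leaving out animals 180 and 257, which had the most of the atrial gene Myl7, left 23 higher and 2 lower in RV. The processing mattered too. Of the 23 RV calls, length offsets kept 18, sex as a covariate 19 and a fit of the 2 groups alone 18. Sex was read from each library's own counts, of Y-linked genes against Xist. Length offsets lost Mcm6, Tyms, Ccna2, Ccnb1 and Nusap1 in RV. Of the 21 LV calls these settings kept 20, 21 and 19.

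**Figure D2:**
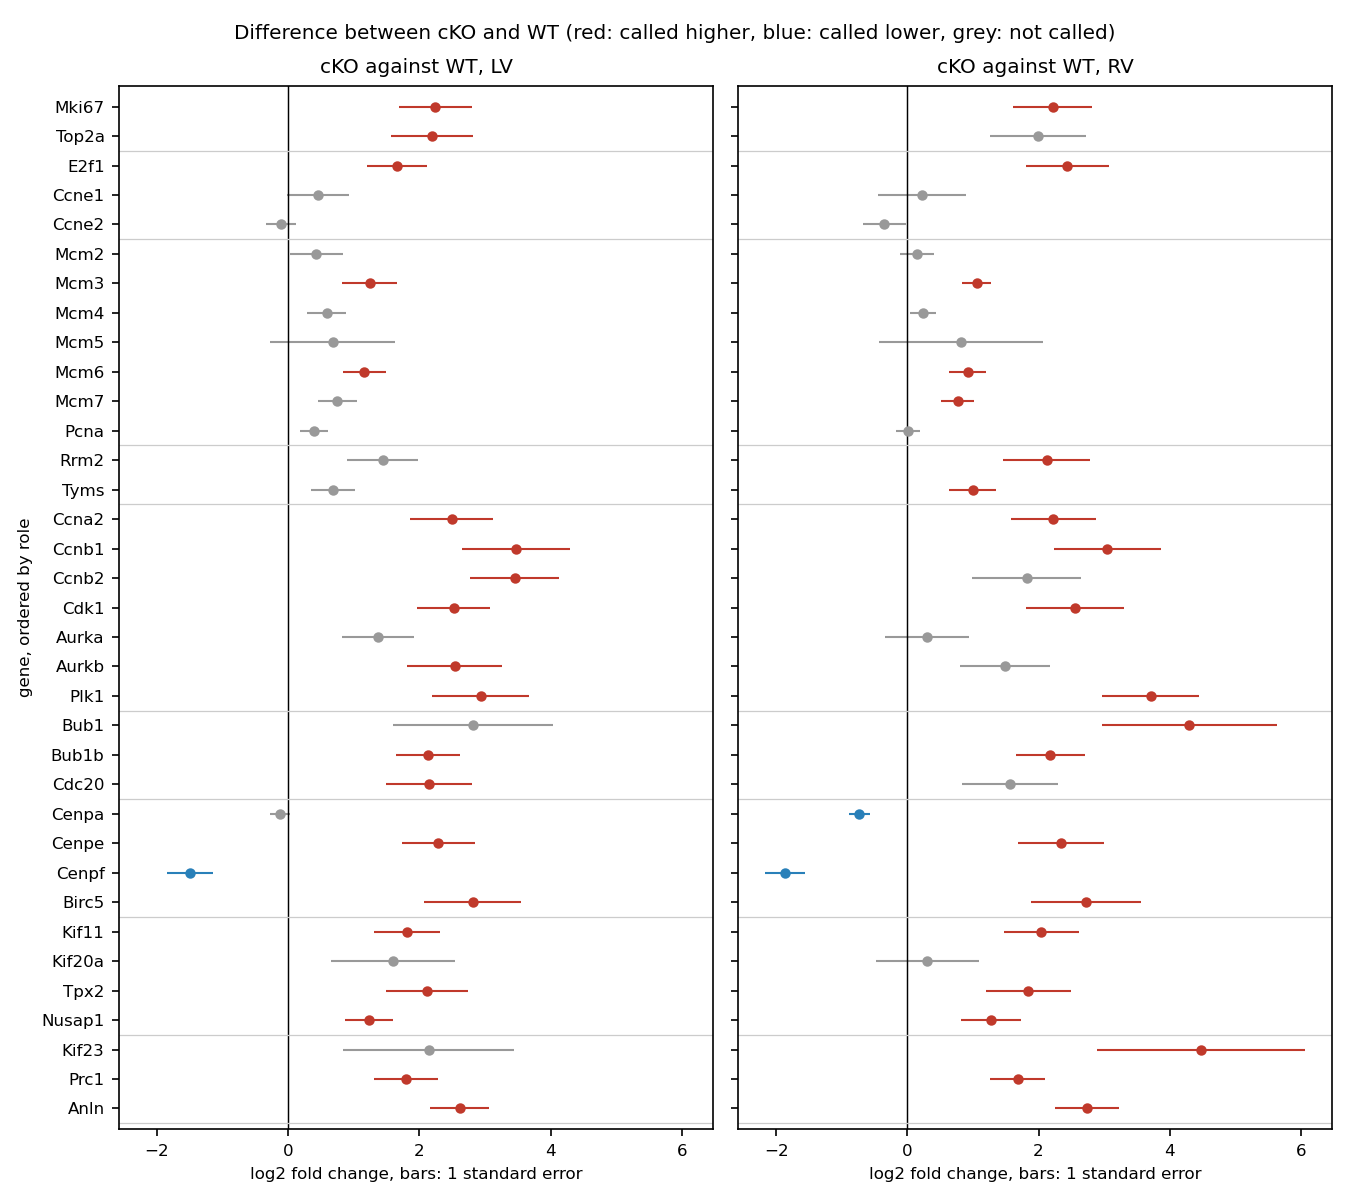
Log2 fold change of cKO against WT with 1 standard error for each of the 35 genes, ordered by role, in LV (left panel) and RV (right panel), red where called higher, blue where called lower and grey where not called. Cenpf lies at -1.49 in LV and -1.86 in RV, while the mitotic cyclins and kinases lie to the right of 0.

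Mki67, a protein that coats mitotic chromosomes and is the standard mark of cycling cells, rose in both ventricles. It stood at 6.39, 7.60, 8.61, 9.07 and 14.5 CPM in WT and 9.74, 16.5, 34.6 and 115 CPM in cKO LV, where all cKO values except that of animal 180 (9.74 CPM) lay above the WT range. The difference was a log2 fold change of 2.24 ± 0.55 (SE, adjusted p = 0.00514), and 1.12 (adjusted p = 0.0354) without animal 177. In RV it stood at 5.68, 6.20 and 11.6 CPM in WT and 16.2, 17.0, 32.7 and 78.7 CPM in cKO, with no overlap and a log2 fold change of 2.21 ± 0.61 (SE, adjusted p = 0.0136). Without WT animal 637 the RV value was 2.07 (adjusted p = 0.0564) and without WT animal 647 it was 2.03 (adjusted p = 0.0589). Top2a, the topoisomerase that untangles replicated chromosomes, stood at 2.09, 2.74, 2.98, 4.19 and 5.70 CPM in WT and 2.63, 5.91, 12.2 and 44.5 CPM in cKO LV. The cKO value of animal 180 lay inside the WT range, and the fold was 2.19 ± 0.63 (SE, adjusted p = 0.0130), or 0.95 (adjusted p = 0.144) without animal 177. In RV, Top2a stood at 2.22, 3.09 and 5.07 CPM in WT and 2.58, 7.03, 14.4 and 30.7 CPM in cKO, the groups overlapped, and the log2 fold change of 1.99 ± 0.73 (SE, adjusted p = 0.0511) missed the threshold by edgeR and passed it by DESeq2 and limma.

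**Figure D3:**
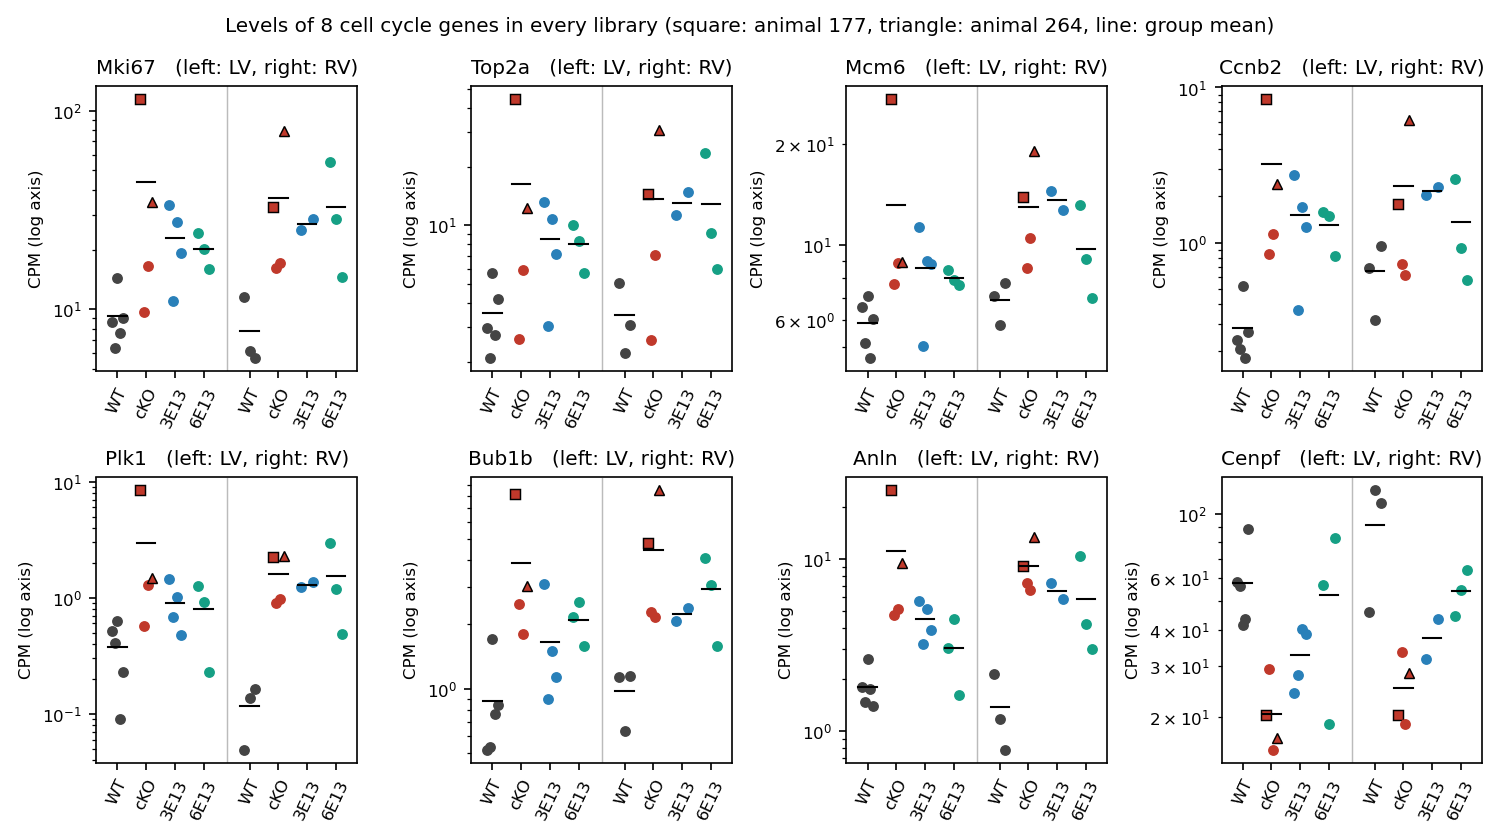
CPM (log axis) of Mki67, Top2a, Mcm6, Ccnb2, Plk1, Bub1b, Anln and Cenpf in every library, with LV left and RV right of the grey line and a black line at the mean of WT, cKO, 3E13 and 6E13. Animal 177 (square) is the highest cKO LV library in every panel but Cenpf, where the 4 cKO LV libraries lie below the 5 WT ones.

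Of the genes that open S phase, E2f1 rose and the E cyclins did not pass the test. E2f1, the factor that activates replication genes, stood at 0.615, 0.854, 0.877, 0.898 and 1.30 CPM in WT and 0.91, 1.86, 2.06 and 6.61 CPM in cKO LV and was at a log2 fold change of 1.65 ± 0.46 (SE, adjusted p = 0.0109). Only animal 180 (0.91 CPM) lay within the WT range there. RV levels were 0.543, 0.659 and 0.689 CPM in WT and 1.88, 1.98, 3.45 and 6.45 CPM in cKO, with no overlap and a log2 fold change of 2.44 ± 0.63 (SE, adjusted p = 0.0101). Its LV call was lost without animal 177, at 0.82 (adjusted p = 0.0860). Ccne1, a cyclin that starts S phase with CDK2, stood at 0.615, 0.630, 0.762, 0.909 and 1.09 CPM in WT and 0.405, 0.480, 0.850 and 2.66 CPM in cKO LV, with overlap and a log2 fold change of 0.46 ± 0.47 (SE, adjusted p = 0.486). Ccne2, its close relative, stood at 3.57, 3.79 and 4.32 CPM in WT and 1.65, 2.43, 3.70 and 4.48 CPM in cKO RV, again overlapping, with a log2 fold change of -0.35 ± 0.32 (SE, adjusted p = 0.435). Across both ventricles the folds of the 2 cyclins lay between -0.35 and 0.46.

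Fewer of the replication helicase and clamp genes were called, 2 of 7 in LV and 3 of 7 in RV, with median log2 fold changes of 0.68 and 0.77. All of these calls were higher in cKO, as were 19.7% of all genes in LV and 19.8% in RV. Mcm3 and Mcm6, subunits of the helicase ring that unwinds DNA, were called by edgeR in both ventricles and Mcm7 in RV. DESeq2 and limma on log2(TPM + 1) called Mcm7 in LV too. In LV, Mcm6 was not called by limma on log2(TPM + 1) or by edgeR with length offsets. Mcm3 stood at 2.47, 3.35, 3.69, 4.07 and 4.39 CPM in WT and 3.98, 4.20, 4.91 and 21.0 CPM in cKO LV, where animal 177 alone lay far above WT, and the fold of 1.24 ± 0.42 (SE, adjusted p = 0.0303) became 0.27 (adjusted p = 0.387) without it. Its RV values were 3.39, 3.54 and 4.72 CPM in WT and 6.41, 7.28, 9.19 and 9.46 CPM in cKO, the 4 cKO libraries lay above the 3 WT ones, and the fold was 1.06 ± 0.22 (SE, adjusted p = 0.00266). Mcm6 stood at 4.63, 5.12, 6.06, 6.57 and 7.08 CPM in WT and 7.69, 8.88, 8.90 and 27.1 CPM in cKO LV, with every cKO library above every WT library and a log2 fold change of 1.16 ± 0.33 (SE, adjusted p = 0.0123). Without animal 177 it was 0.51 (adjusted p = 0.0662). The RV libraries gave 5.79, 7.08 and 7.74 CPM in WT and 8.57, 10.5, 13.9 and 19.1 CPM in cKO, with no overlap and a log2 fold change of 0.92 ± 0.28 (SE, adjusted p = 0.0234). Mcm2, Mcm4, Mcm5 and Pcna, the sliding clamp, passed in neither ventricle by edgeR, and their 8 log2 fold changes lay between 0.01 and 0.82. Limma on log2(TPM + 1), a scale on which the median over all genes rose by 0.37 in LV and 0.54 in RV, called Mcm4 and Pcna in LV and Mcm2, Mcm4 and Pcna in RV. Mcm5 swung between 0 and 4.70 CPM over the libraries, from 0 in 1 library each of 3E13 LV and cKO RV to 4.70 in a 3E13 RV library.

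By edgeR, both enzymes of deoxynucleotide supply passed in RV and neither in LV. There DESeq2 called Rrm2 and limma on log2(TPM + 1) called both. Rrm2, the regulated subunit of ribonucleotide reductase, stood at 0.815, 0.947 and 2.21 CPM in WT and 2.53, 3.92, 4.65 and 12 CPM in cKO RV, with no overlap and a log2 fold change of 2.13 ± 0.66 (SE, adjusted p = 0.0253). In LV it stood at 0.900, 1.41, 1.79, 1.93 and 2.98 CPM in WT and 2.07, 2.49, 3.86 and 11.1 CPM in cKO, the ranges overlapped, and the fold was 1.44 ± 0.55 (SE, adjusted p = 0.0514). Tyms, which makes thymidylate, stood at 2.39, 2.53 and 4.08 CPM in WT and 2.97, 5.86, 6.37 and 8.75 CPM in cKO RV, where animal 180 (2.97 CPM) fell within the WT range, with a log2 fold change of 1.00 ± 0.36 (SE, adjusted p = 0.0451). In LV it stood at 2.92, 2.99, 3.30, 3.59 and 3.66 CPM in WT and 2.16, 3.67, 4.86 and 10.4 CPM in cKO with overlap and a log2 fold change of 0.68 ± 0.34 (SE, adjusted p = 0.133).

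Mitotic cyclins and kinases had the highest median LV fold of the 9 roles. Of the 7, 6 rose in LV (all but Aurka) and 4 in RV (Ccna2, Ccnb1, Cdk1 and Plk1), with medians of 2.54 and 2.22. The shares of all genes called higher were 19.7% in LV and 19.8% in RV. Ccnb2, a B cyclin, stood at 0.180, 0.205, 0.236, 0.267 and 0.523 CPM in WT and 0.843, 1.14, 2.39 and 8.43 CPM in cKO LV, with every cKO library above every WT library and a log2 fold change of 3.45 ± 0.68 (SE, adjusted p = 0.00128). Without animal 177 it was 2.31 (adjusted p = 0.00474). In RV the levels were 0.317, 0.689 and 0.947 CPM in WT and 0.615, 0.732, 1.78 and 6.14 CPM in cKO, the groups overlapped, and the fold was 1.82 ± 0.83 (SE, adjusted p = 0.109). Ccnb1, the main partner of CDK1, stood at 0.0410, 0.152, 0.270, 0.330 and 0.331 CPM in WT and 0.303, 0.660, 2.26 and 6.97 CPM in cKO LV, overlapping through animal 180, with a log2 fold change of 3.47 ± 0.83 (SE, adjusted p = 0.00442), and at 0.0905, 0.124 and 0.492 CPM in WT and 0.862, 1.04, 2.32 and 3.55 CPM in cKO RV, without overlap, with a log2 fold change of 3.05 ± 0.82 (SE, adjusted p = 0.0118).

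Cdk1, the kinase that triggers mitosis, stood at 0.315, 0.419, 0.533, 0.688 and 0.756 CPM in WT and 0.978, 1.35, 2.75 and 7.51 CPM in cKO LV, where all cKO libraries lay above WT, with a log2 fold change of 2.52 ± 0.55 (SE, adjusted p = 0.00264). In RV it stood at 0.329, 0.453 and 0.836 CPM in WT and 0.948, 1.33, 3.01 and 7.42 CPM in cKO, again without overlap, with a log2 fold change of 2.56 ± 0.74 (SE, adjusted p = 0.0179). Its exons overlap those of Ank3 on the other strand, and whether the quantification used strand is not given in the sources used here. Plk1, the kinase of mitotic entry and spindle assembly, stood at 0.0900, 0.229, 0.410, 0.520 and 0.633 CPM in WT and 0.573, 1.29, 1.47 and 8.40 CPM in cKO LV, overlapping through animal 180 (0.57 CPM), with a log2 fold change of 2.93 ± 0.74 (SE, adjusted p = 0.00625), and without animal 177 it was 1.53 (adjusted p = 0.0613). RV levels were 0.0492, 0.136 and 0.165 CPM in WT and 0.905, 0.971, 2.25 and 2.28 CPM in cKO. The 3 WT RV libraries held 1, 3 and 4 counts of Plk1 and the 4 cKO RV libraries held 21, 30, 59 and 66, with no overlap, and the fold was 3.71 ± 0.74 (SE, adjusted p = 0.00217). Aurka and Aurkb, the Aurora kinases of the spindle poles and of the chromosomal passenger complex, lay at 1.37 and 2.54 in LV and at 0.30 and 1.49 in RV, and edgeR called Aurkb in LV alone. DESeq2 called Aurka there too.

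At the spindle checkpoint, which holds anaphase until all chromosomes are attached, Bub1b rose in both ventricles. Bub1b, the checkpoint protein BubR1, stood at 0.520, 0.533, 0.765, 0.839 and 1.71 CPM in WT and 1.8, 2.49, 3.01 and 8.18 CPM in cKO LV, with no overlap and a log2 fold change of 2.13 ± 0.49 (SE, adjusted p = 0.00356). Its RV values were 0.634, 1.13 and 1.15 CPM in WT and 2.17, 2.28, 4.82 and 8.46 CPM in cKO, again with no overlap, with a log2 fold change of 2.18 ± 0.53 (SE, adjusted p = 0.00713). Its partner kinase Bub1 stood at 0, 0.0453 and 0.124 CPM in WT and 0.775, 0.777, 1.33 and 2.09 CPM in cKO RV, with no overlap, and at a log2 fold change of 4.30 ± 1.34 (SE, adjusted p = 0.0250), from 0, 1 and 3 counts in WT. In LV, Bub1 stood at 0.0410, 0.0473, 0.165, 0.180 and 0.343 CPM in WT and 0.0600, 0.202, 0.785 and 3.50 CPM in cKO, overlapping, with a log2 fold change of 2.82 ± 1.22 (SE, adjusted p = 0.0842). Cdc20, which switches on the anaphase promoting complex, stood at 0.270, 0.410, 0.610, 0.756 and 0.936 CPM in WT and 0.506, 1.02, 1.8 and 7.39 CPM in cKO LV, where animal 180 lay within WT, with a log2 fold change of 2.15 ± 0.66 (SE, adjusted p = 0.0185), and without animal 177 it was 0.87 (adjusted p = 0.225). Limma on log2(TPM + 1) did not call Cdc20 in LV. In RV, Cdc20 stood at 0.165, 0.226 and 0.935 CPM in WT and 1.00, 1.03, 1.26 and 1.89 CPM in cKO, with no overlap, and its fold of 1.56 ± 0.73 (SE, adjusted p = 0.117) missed the threshold by edgeR and passed by limma on log2(TPM + 1).

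The centromere and kinetochore genes split. Cenpe, the motor that brings chromosomes to the spindle equator, stood at 0.492, 0.898, 0.915, 1.12 and 1.57 CPM in WT and 1.15, 2.19, 3.57 and 12.8 CPM in cKO LV, overlapping through animal 180, and rose with a log2 fold change of 2.29 ± 0.56 (SE, adjusted p = 0.00512). The RV libraries gave 0.288, 0.634 and 1.48 CPM in WT and 1.90, 2.23, 4.61 and 7.45 CPM in cKO, with no overlap and a log2 fold change of 2.35 ± 0.66 (SE, adjusted p = 0.0147). Birc5, the passenger protein survivin, was called higher in both ventricles too, at 2.81 in LV and 2.72 in RV.

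Cenpf went the other way. It encodes a large microtubule-binding protein of the kinetochore that also acts in heart muscle cells, where its loss in mice has been tied to dilated cardiomyopathy. In LV it stood at 41.5, 43.5, 56.5, 58.4 and 88.8 CPM in WT and 15.5, 17.0, 20.3 and 29.3 CPM in cKO, every cKO library lay below every WT library, and the difference was a log2 fold change of -1.49 ± 0.35 (SE, adjusted p = 0.00403). In RV the levels were 45.8, 109 and 120.4 CPM in WT and 19.0, 20.3, 28.3 and 33.4 CPM in cKO, again with no overlap and a log2 fold change of -1.86 ± 0.30 (SE, adjusted p = 0.000633). Animal 177, the highest cKO LV library for every other member, had 20.3 CPM of Cenpf in LV, and with it left out the LV value was -1.50 (adjusted p = 0.00940). With animals 177 and 264 both left out, the values were -1.37 (adjusted p = 0.0499) in LV and -1.83 (adjusted p = 0.00851) in RV. The summed cardiomyocyte markers fell beside it, with the highest cKO library below the lowest WT library in both ventricles, and their part in this value was not tested. On the TPM scale Cenpf remained lower, at -0.61 (adjusted p = 0.0499) in LV and -0.62 (adjusted p = 0.0382) in RV.

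Cenpa, the histone that marks the centromere, was lower in RV and not called in LV. In RV it stood at 9.99, 11.4 and 14.8 CPM in WT and 6.85, 7.07, 7.22 and 7.96 CPM in cKO, with no overlap and a log2 fold change of -0.73 ± 0.16 (SE, adjusted p = 0.00338). On the TPM scale the RV difference turned, at 0.11 (adjusted p = 0.587), while the median of all genes rose by 0.54 there. In LV it stood at 8.69, 8.75, 8.77, 10.1 and 10.4 CPM in WT and 7.74, 8.21, 8.83 and 9.49 CPM in cKO, overlapping, with a log2 fold change of -0.12 ± 0.16 (SE, adjusted p = 0.579).

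**Figure D4:**
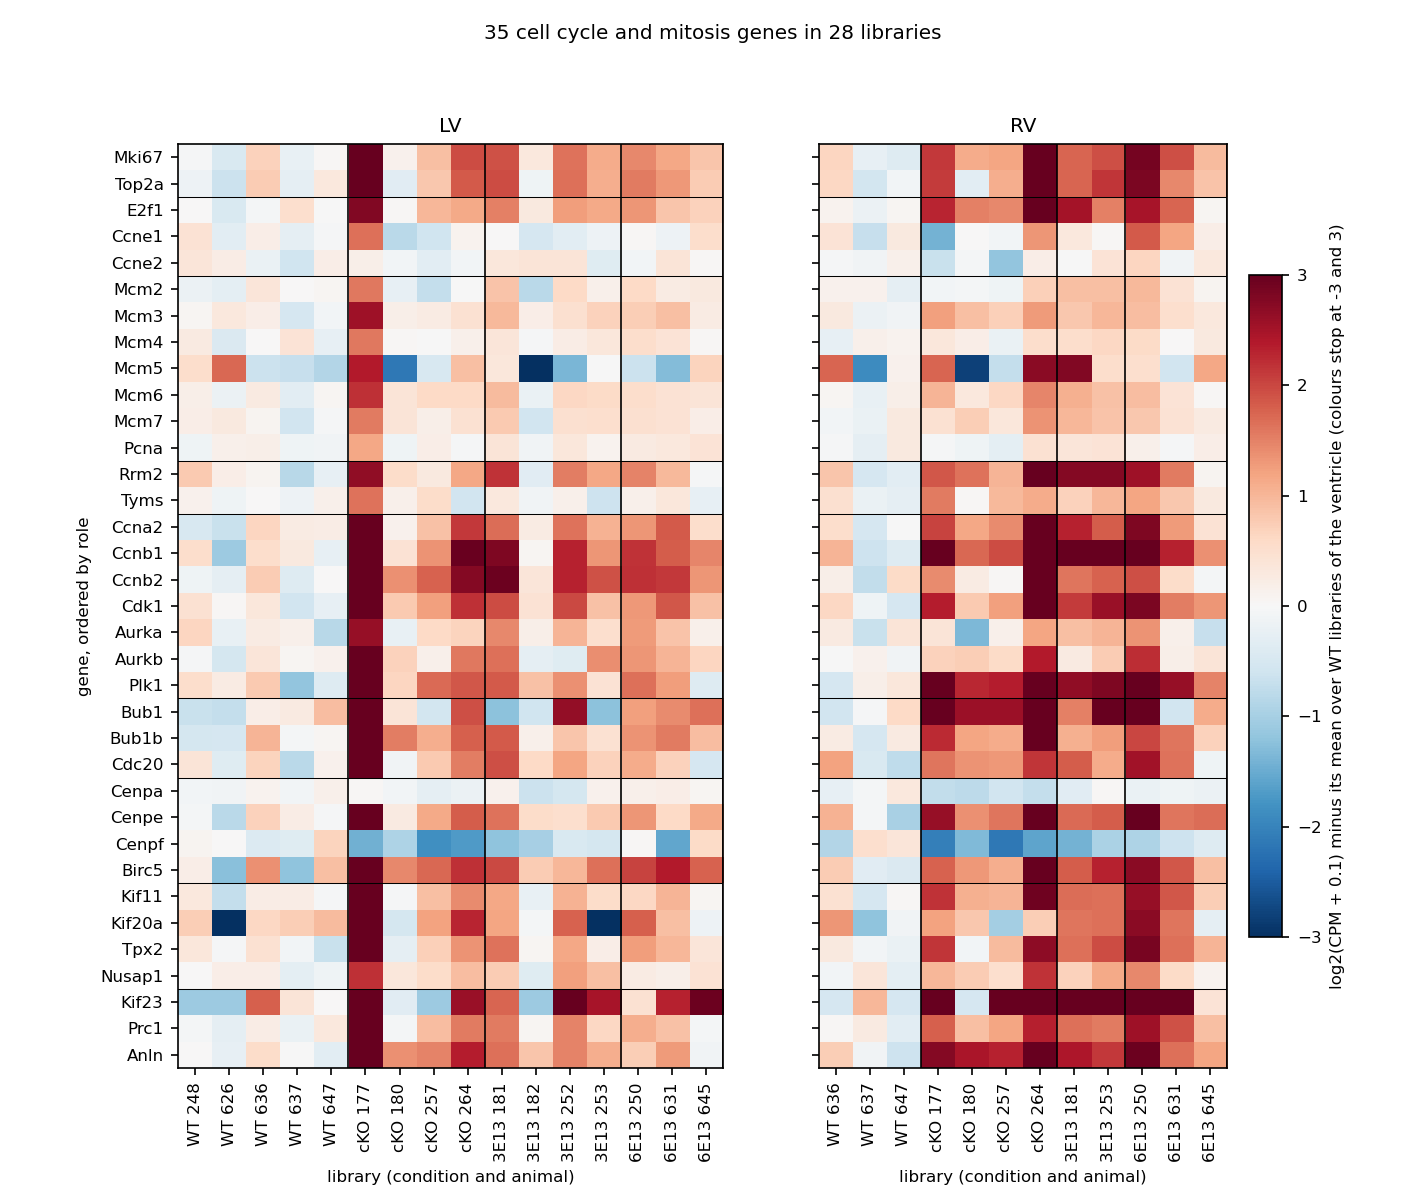
Each square is 1 gene (rows, ordered by role and parted by lines) in 1 library (columns, by condition and animal), coloured by log2(CPM + 0.1) minus its mean over the WT libraries of that ventricle, red above and blue below, with colours stopping at -3 and 3. Animal 177 in LV has 32 members more than 1 above the WT mean, and Cenpf runs blue across all cKO columns.

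Of the 7 spindle and cytokinesis genes, 5 rose in LV and 6 in RV, against 19.7% and 19.8% of all genes. Kif11, the motor that pushes spindle poles apart, stood at 1.02, 1.68, 2.02, 2.04 and 2.17 CPM in WT and 1.69, 3.30, 4.78 and 15.3 CPM in cKO LV, overlapping through animal 180, with a log2 fold change of 1.81 ± 0.50 (SE, adjusted p = 0.0107), and without animal 177 it was 0.85 (adjusted p = 0.0926). RV levels were 0.860, 1.28 and 1.77 CPM in WT and 2.62, 2.71, 5.98 and 10.2 CPM in cKO, with no overlap and a log2 fold change of 2.04 ± 0.57 (SE, adjusted p = 0.0143). Tpx2, which activates Aurora A on the spindle, stood at 0.915, 1.44, 1.48, 1.94 and 2.12 CPM in WT and 1.25, 2.55, 4.02 and 19.6 CPM in cKO LV, overlapping, with a log2 fold change of 2.12 ± 0.62 (SE, adjusted p = 0.0150), or 0.71 (adjusted p = 0.220) without animal 177. In RV, Tpx2 stood at 0.906, 0.996 and 1.33 CPM in WT and 0.991, 2.14, 5.02 and 7.34 CPM in cKO, where animal 180 lay within the WT range, with a log2 fold change of 1.85 ± 0.64 (SE, adjusted p = 0.0404). Nusap1, a spindle microtubule protein, was called in both ventricles at 1.24 and 1.28, and Kif20a, a motor of late mitosis, in neither by edgeR and in LV by limma on log2(TPM + 1).

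Anln, anillin, the scaffold of the contractile ring that divides the cell, had the smallest p in LV of the members that rose. It stood at 1.41, 1.48, 1.75, 1.8 and 2.62 CPM in WT and 4.72, 5.16, 9.49 and 25.1 CPM in cKO LV, with every cKO library above every WT library and a log2 fold change of 2.61 ± 0.45 (SE, adjusted p = 0.000454). Without animal 177 it was 1.82 (adjusted p = 0.000583), and with animals 177 and 264 both left out it was 1.44 (adjusted p = 0.00617). Its RV values were 0.782, 1.18 and 2.16 CPM in WT and 6.64, 7.32, 9.12 and 13.5 CPM in cKO, with no overlap and a log2 fold change of 2.74 ± 0.49 (SE, adjusted p = 0.00111). Prc1, which bundles microtubules of the central spindle, stood at 2.17, 2.29, 2.55, 3.11 and 3.32 CPM in WT and 2.53, 5.13, 7.98 and 21.7 CPM in cKO LV, overlapping through animal 180, with a log2 fold change of 1.79 ± 0.49 (SE, adjusted p = 0.00980), or 0.94 (adjusted p = 0.0729) without animal 177. In RV, Prc1 stood at 1.69, 2.16 and 2.58 CPM in WT and 4.05, 4.89, 7.55 and 11 CPM in cKO, with no overlap and a log2 fold change of 1.68 ± 0.42 (SE, adjusted p = 0.00859). Kif23, the motor partner of the central spindle, passed in RV alone, at 4.47 from 0, 0 and 4 counts in WT. Exons of 15 of the 35 members, Anln and Cenpf among them, overlap a gene on the other strand.

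The other cell cycle genes, 127 in 6 lists, were counted list by list, by edgeR. Of all genes, 19.7% were called higher and 16.1% lower in LV. In RV the shares were 19.8% and 17.6%. Of the condensin, spindle and cytokinesis list, 25 of 37 genes tested rose in LV and 0 fell, and 18 of 38 in RV. Both counts lay above the shares of all genes. The lists were chosen with earlier results of these data known, so these counts are no independent support for the members' result. The list's medians were 2.16 and 1.78, against 0.05 and 0.06 over all genes. Ckap2l, a spindle protein, was at 2.07 ± 0.57 (SE, adjusted p = 0.0104) in LV and 2.80 ± 0.54 (SE, adjusted p = 0.00173) in RV, and Smc4, a condensin subunit, at 1.01 ± 0.15 (SE, adjusted p = 0.000207) and 1.46 ± 0.16 (SE, adjusted p = 5.09e-05). Of the kinetochore, checkpoint and anaphase promoting complex list, 8 of 18 rose and 1 fell in LV, and 4 of 21 rose and 1 fell in RV. Its medians were 0.95 and 1.07. The RV count was near the share of all genes. Ube2c, the ubiquitin carrier of that complex, was at 2.30 ± 0.67 (SE, adjusted p = 0.0138) and 2.98 ± 0.64 (SE, adjusted p = 0.00338). Of the replication list, 7 of 29 rose and 2 fell in LV, and 3 rose and 2 fell in RV, with medians of 0.56 and 0.20. These counts were near the share of all genes called higher in LV and below it in RV. Without animal 177, 9 of the 37 spindle and cytokinesis genes rose in LV, 2 of 17 kinetochore genes and 3 of 29 replication genes. Without cKO animal 264, WT animal 637 or WT animal 647, 7, 7 and 6 of 38 spindle and cytokinesis genes rose in RV. With animals 177 and 264 both left out, 1 of 37 rose in LV and 3 of 38 in RV.

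Among the regulators, 4 of 13 E2F, MuvB, B-Myb and FoxM1 factors rose and 1 fell in LV, and 3 rose and 1 fell in RV, with medians of 0.18 and 0.35. The background is the same 19.7% and 19.8% of all genes called higher and 16.1% and 17.6% called lower. The 3 of 13 higher in RV lay near that share. Foxm1, the activator of mitotic genes, was at 2.33 ± 0.62 (SE, adjusted p = 0.00887) in LV and 2.30 ± 0.66 (SE, adjusted p = 0.0169) in RV, and E2f2 at 2.91 ± 0.46 (SE, adjusted p = 0.000269) and 2.30 ± 0.31 (SE, adjusted p = 0.000182). E2f6, a repressor, fell with -1.13 ± 0.26 (SE, adjusted p = 0.00369) and -0.98 ± 0.26 (SE, adjusted p = 0.0125). Of 9 CDK inhibitors and pocket proteins, 4 rose in LV and 3 in RV, with medians of 0.42 and 0.56. Cdkn1a, the inhibitor p21, was at 3.74 ± 0.54 (SE, adjusted p = 0.000128) in LV and 4.06 ± 0.70 (SE, adjusted p = 0.000863) in RV, and Cdkn2b, the inhibitor p15, at 1.43 ± 0.43 (SE, adjusted p = 0.0164) and 4.24 ± 0.68 (SE, adjusted p = 0.000566). Of 9 G1 cyclins and kinases, Cdk6 alone rose and Ccnh alone fell in each ventricle. The medians were -0.23 and -0.09. What left-out libraries do to the calls of these regulators is not reported here.

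The second comparison asked whether the vector moved these genes in cKO hearts. The comparisons of 3E13 and of 6E13 with cKO share the cKO libraries. In LV at 3E13, edgeR called 0 of the 35 members, against 11.8% of all genes in either direction, with 4 at an unadjusted p under 0.05, 1 by DESeq2 and 1 by limma. At 6E13 in LV, Cenpf rose and Anln fell, 2.86% of the members each way, against 8.65% and 8.16% of all genes. The median log2 fold change of the members in LV was -0.93 at 3E13 and -0.95 at 6E13, and 32 and 31 of 35 folds were negative. Without cKO animal 177 those medians were 0.07 and 0.06. In RV at 3E13, where 2 libraries were available, edgeR called 0, against 8.6% of all genes, with 2 at an unadjusted p under 0.05, 1 by DESeq2 and 1 by limma. In RV at 6E13, Cenpf and Cenpa rose, 5.71% of the members against 11.2% of all genes, and 0 fell. The members' medians in RV were -0.10 at 3E13 and -0.14 at 6E13, and without cKO animal 264 they were 0.50 and 0.39. Of the other cell cycle genes, 2 rose and 7 fell of 115 tested at 3E13 in LV, 3 rose and 5 fell at 6E13 in LV, 0 rose and 3 fell of 119 at 3E13 in RV, and 3 rose and 5 fell at 6E13 in RV. These counts lay near or below the share of all genes called in the same direction. At 6E13 in RV, 1880 of all 17307 genes fell. Cdkn1a was among the listed cell cycle genes that fell, at -2.01 ± 0.54 (SE, adjusted p = 0.0295) and -3.41 ± 0.65 (SE, adjusted p = 0.00361) in LV. Smc4 fell at both doses in both ventricles. In LV it was at -0.60 ± 0.16 (SE, adjusted p = 0.0308) and -0.72 ± 0.18 (SE, adjusted p = 0.0145). In RV it was at -0.65 ± 0.17 (SE, adjusted p = 0.0429) and -0.74 ± 0.15 (SE, adjusted p = 0.00577).

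Mki67 stood at 11, 19.2, 27.5 and 33.4 CPM in 3E13 LV and at 15.9, 20.1 and 24.2 CPM in 6E13 LV, inside the cKO range of 9.74 to 115 CPM and with 3 of 4 and 3 of 3 libraries above the highest WT value of 14.5 CPM. Against cKO it was at a log2 fold change of -0.94 ± 0.57 (SE, adjusted p = 0.293) and a log2 fold change of -1.13 ± 0.63 (SE, adjusted p = 0.235). The RV libraries gave 25.2 and 28.4 CPM in 3E13 and 14.5, 28.5 and 55.0 CPM in 6E13, all above the 3 WT values, with a log2 fold change of -0.43 ± 0.64 (SE, adjusted p = 0.728) and a log2 fold change of -0.14 ± 0.56 (SE, adjusted p = 0.890) against cKO. Top2a stood at 3.05, 7.17, 10.8 and 13.2 CPM in 3E13 LV, 5.68, 8.36 and 10.0 CPM in 6E13 LV, 11.3 and 14.8 CPM in 3E13 RV and 5.96, 9.10 and 23.6 CPM in 6E13 RV, again within the cKO ranges.

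Cenpf stood at 24.2, 27.9, 38.8 and 40.4 CPM in 3E13 LV and at 18.9, 56.9 and 82.5 CPM in 6E13 LV, against 15.5, 17.0, 20.3 and 29.3 CPM in cKO. The 6E13 values spread from within the cKO range (animal 631, 18.9 CPM) to within that of WT (animal 645, 82.5 CPM). The differences from cKO were a log2 fold change of 0.68 ± 0.36 (SE, adjusted p = 0.23) at 3E13 and a log2 fold change of 1.36 ± 0.38 (SE, adjusted p = 0.0253) at 6E13, and the second was 0.90 (adjusted p = 0.170) without animal 645. It also missed the threshold without 6E13 animal 250, cKO animal 257 or cKO animal 264, at adjusted p = 0.0722, 0.0545 and 0.0570. In RV, Cenpf stood at 31.7 and 43.5 CPM in 3E13 and at 44.5, 54.7 and 64.1 CPM in 6E13, and all 6E13 libraries lay above the highest cKO value of 33.4 CPM. The differences were a log2 fold change of 0.57 ± 0.34 (SE, adjusted p = 0.312) and a log2 fold change of 1.11 ± 0.30 (SE, adjusted p = 0.0219). Leaving out 6E13 animal 645, 6E13 animal 631 or cKO animal 177 ended the 6E13 call, at adjusted p = 0.0909, 0.0603 and 0.0509. On the TPM scale the 6E13 difference was not called in either ventricle, at 0.45 in LV and 0.35 in RV (limma adjusted p = 0.234 and 0.252).

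Cenpa stood at 10.3, 10.5 and 10.9 CPM in 6E13 RV against 6.85, 7.07, 7.22 and 7.96 CPM in cKO RV, with no overlap and a log2 fold change of 0.54 ± 0.16 (SE, adjusted p = 0.0300). Leaving out any 1 of the 6E13 libraries, or cKO animal 177, 180 or 264, ended that call, with adjusted p between 0.0549 and 0.0950, and on the TPM scale the value was -0.01 (adjusted p = 0.972). Anln stood at 1.63, 3.03 and 4.46 CPM in 6E13 LV against 4.72, 5.16, 9.49 and 25.1 CPM in cKO LV, below every cKO library, with a log2 fold change of -1.87 ± 0.52 (SE, adjusted p = 0.0243). Without cKO animal 177 the Anln value was -1.08 (adjusted p = 0.0557), without 6E13 animal 250 it was -1.86 (adjusted p = 0.0766) and without 6E13 animal 645 it was -1.56 (adjusted p = 0.113). In 3E13 LV, Anln stood at 3.21, 3.89, 5.15 and 5.74 CPM with a log2 fold change of -1.31 ± 0.46 (SE, adjusted p = 0.0756) against cKO.

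The third comparison set the treated hearts beside WT, and both doses share the WT libraries. In LV, edgeR called 0 of 35 members at 3E13, with 9 at an unadjusted p under 0.05, 1 by DESeq2 and 0 by limma, and 2.5% of all genes were called. At 6E13 in LV it called 0, with 5 at an unadjusted p under 0.05 and 0 by DESeq2 and by limma, and 0.0853% of all genes were called. Every 6E13 LV library lay above every WT library for 10 members, 28.6%, against 6.31% of all genes, and 30 and 33 of 35 folds were positive, with medians of 0.91 and 0.74. In RV at 3E13, 5 members rose, 14.3% against 5.8% of all genes, namely Mcm3, Rrm2, Ccnb1, Plk1 and Anln. That count was 13 by DESeq2 (12 higher and 1 lower), 0 by limma on log2(TPM + 1), 2 with sex as a covariate and 15 in a fit of the 2 groups alone. Both 3E13 RV libraries lay above every WT library for 29 members, against 23.7% of all genes. At 6E13 in RV, edgeR called 0 of 35, with 19 at an unadjusted p under 0.05, 7 by DESeq2 and 0 by limma, where 0.872% of all genes were called. All 6E13 RV libraries lay above WT for 14 members, against 12.3% of all genes, and the members' medians against WT were 1.49 and 1.58 in RV.

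The 5 called members had higher values in both 3E13 RV libraries than in the 3 WT libraries. Plk1 stood at 1.24 and 1.36 CPM with a log2 fold change of 3.40 ± 0.79 (SE, adjusted p = 0.0247), and Anln at 5.84 and 7.26 CPM with a log2 fold change of 2.26 ± 0.53 (SE, adjusted p = 0.0258). Ccnb1 stood at 2.52 and 2.71 CPM with a log2 fold change of 3.47 ± 0.89 (SE, adjusted p = 0.0369). Rrm2 stood at 8.64 and 8.73 CPM with a log2 fold change of 2.72 ± 0.74 (SE, adjusted p = 0.0470), and Mcm3 at 6.78 and 7.80 CPM with a log2 fold change of 0.91 ± 0.25 (SE, adjusted p = 0.0491). Leaving out animal 181 or 253 of 3E13, or animal 637 or 647 of WT, left 0 of these calls, and without 6E13 animal 631, 2 were left. The lone 3E13 library was then taken to vary like the other groups. With length offsets in edgeR, Mcm3 was at 0.25 (adjusted p = 0.768) and Ccnb1 at 2.76 (adjusted p = 0.128). Mcm3 also missed the threshold with RLE size factors, with no filter on low counts and in a fit of the 2 groups alone. The edgeR adjusted p values there were 0.0543, 0.0685 and 0.0543. In 6E13 RV, Plk1 stood at 0.486, 1.18 and 2.95 CPM and Anln at 3.00, 4.20 and 10.4 CPM, above the WT values in all 3 libraries.

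Markers of immune cells and fibroblasts were also higher in 3E13 RV than in WT RV. By edgeR, 5 of 7 T and NK cell markers tested rose, as did 7 of 11 of macrophages and monocytes and 5 of 8 of fibroblasts, and 0 of 7 cardiomyocyte markers were called. Among all genes, 5.8% rose in that comparison. The 8 T and NK cell markers summed to 15.7 and 27.6 CPM in the 3E13 RV libraries, above 1.15 to 2.02 CPM in WT, 4.52 to 11.3 CPM in cKO and 8.54 to 8.75 CPM in 6E13 RV. Macrophage and monocyte markers summed to 426 and 446 CPM against 154 to 186 CPM in WT, and fibroblast markers to 3450 and 3892 CPM against 1188 to 1475 CPM. Their part in the members' values was not tested.

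Between the doses, edgeR called 0 of 35 members in LV and 0 in RV, with 0 at an unadjusted p under 0.05 in either and 0 by DESeq2 and by limma, while 0.0122% and 0.0404% of all genes were called. The members' median log2 difference of 6E13 against 3E13 was -0.01 in LV and -0.10 in RV.

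The last comparison set RV against LV within animals, in a fit of the 24 libraries of 12 animals that keeps each animal as its own block. The cKO effect was not called as different between the ventricles for any of the 35 members, against 0.0111% of 17981 genes, with 1 member (Cenpa, -0.54) at an unadjusted p under 0.05 and 0 called by limma on voom weights. Within cKO hearts 0 members were called between RV and LV, against 4.08% of genes, with 1 (Cenpa, -0.37) at an unadjusted p under 0.05 and 0 by limma. Nor was the difference of 6E13 from cKO called as unequal between the ventricles, with 0 of 35 members against 0% of all genes, 0 at an unadjusted p under 0.05 and 0 by limma. In the cKO animals Mki67 was higher in LV than in RV in animal 177 and higher in RV in the other 3. Animal 177 had 115 CPM in LV and 32.7 CPM in RV, animal 264 had 34.6 CPM in LV and 78.7 CPM in RV, animal 180 had 9.74 and 16.2 CPM, and animal 257 had 16.5 and 17.0 CPM.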

How the data were processed

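Bulk RNA was sequenced from left and right ventricles of 16 mice. The labels name polyA RNA and also a stranded total RNA kit with removal of ribosomal RNA. Per the labels and the study's methods, the authors trimmed reads with fastp and quantified them with Salmon 1.8.0 against GRCm39 transcripts with human PKP2 added. The authors deposited estimated counts (expected counts) per gene symbol, not normalized, as well as TPM and average transcript lengths. Whether the quantification used strand is not given in the sources used here.

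Expected counts were rounded to whole numbers. Each ventricle was fitted in 1 model over its 4 groups with edgeR 4.0.16 (R 4.3.3), using filterByExpr, TMM scaling and the quasi-likelihood F test, with Benjamini-Hochberg adjustment over all genes tested and calls at an adjusted p under 0.05. The SE was taken as the size of the log2 fold change over the root of F. RV and LV were compared within animals (24 libraries of 12 animals, each animal a block), since same-numbered libraries come from the same animal. The correlation of their deviations from the group means lay between 0.03 and 0.39. Alternatives used DESeq2 1.42.0, limma 3.58.1 on log2(TPM + 1), other scalings, filters, covariates and left-out libraries. The fitting steps were tested on simulated data. Depth was 19364737 to 39381144 counts per library, and a count of 0 allows up to 3 counts. Replicates were separate animals, and 38 pairs of libraries of 1 group were checked for copies, with none found.

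The members, roles and gene lists were chosen with earlier results of these data known. Values in every library are given for up to 2 members per role with the smallest unadjusted p in cKO against WT in each ventricle, for Mki67 and Top2a, and for members called in treated groups. From the other lists, up to 4 called genes with the smallest p could be named.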

Additional observations from a re-analysis of the deposited data

Results flagged for a closer look

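Of 148 gene and group pairs with 4 or 5 libraries, some had 1 library far from the others of its group by Dixon's test at 95%, which chance gives in about 1 in 20 groups. In cKO LV, animal 177 was far above the other 3 libraries for 10 members and for the sum of all 35, at 574 CPM. Its values were 17.3 CPM for Mcm2, 21.0 CPM for Mcm3, 21.1 CPM for Mcm4, 27.1 CPM for Mcm6 and 17.1 CPM for Mcm7. They were 4.71 CPM for Aurka, 6.02 CPM for Aurkb, 8.40 CPM for Plk1, 6.53 CPM for Birc5 and 19.6 CPM for Tpx2.

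In cKO RV, animal 264 was far above the others for Mcm2 (8.61 CPM), Aurkb (2.78 CPM) and Birc5 (6.02 CPM). In WT LV, animal 636 was high for Ccnb2 (0.523 CPM), Bub1b (1.71 CPM) and Kif23 (0.633 CPM), and animal 626 had 0 CPM of Kif20a. In 3E13 LV, animal 252 was high for Bub1 (1.34 CPM) and animal 253 was low for Ccne2 (2.62 CPM).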

How the results depend on the processing

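Of the values recomputed under alternatives, 2168 kept direction and side of the threshold, 242 lost and 26 gained a call, and 22 reversed. Depth limits the rarest members, whose WT libraries hold few counts. The causes of the changes were not tested.

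Leaving out 1 library at a time gave, for cKO against WT, 8 to 25 members called in LV and 9 to 24 in RV. For 3E13 against cKO it gave 0 to 2 in LV and 0 to 1 in RV, for 6E13 against cKO 0 to 3 and 0 to 2, for 3E13 against WT 0 to 5 and 0 to 7, and for 6E13 against WT 0 to 0 and 0 to 3. RV against LV in cKO gave 0 to 1, and the dose comparisons and both differences of effects between ventricles gave 0 to 0. With animals 177 and 264 both left out, chosen after seeing the data, cKO against WT had 3 calls in LV and 5 in RV, and calls numbered 0 and 0 for 6E13 against cKO, 6 and 12 for 3E13 against WT, and 2 for 6E13 against WT in RV. Leaving out the 2 cKO RV libraries with most Myl7, also chosen later, gave 1 for 6E13 against cKO, 9 for 3E13 against WT and 2 for 6E13 against WT.

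DESeq2 called 1 for 3E13 against cKO in each ventricle, 1 in LV and 13 in RV for 3E13 against WT, and 7 for 6E13 against WT in RV. Limma on TPM called 1 for 3E13 against cKO in each ventricle, 1 for 6E13 against cKO in LV and 0 for 3E13 against WT in RV. Fits of only the 2 groups compared called 0 for 6E13 against cKO in LV, and 7 in LV and 15 in RV for 3E13 against WT. In RV, no filter on low counts gave 1 for 6E13 against cKO and 3 for 6E13 against WT, length offsets gave 1 for 6E13 against WT, and sex as a covariate gave 2 for 3E13 against WT.

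Directions turned for these genes. On the TPM scale, Ccne2 was at 0.38 in LV and 0.19 in RV, Cenpa at 0.35 and 0.11 and Ccnh at 0.12 in RV for cKO against WT, Cenpf at -0.11 for 3E13 against cKO in RV, and Cenpa at -0.01 (-0.00919) for 6E13 against cKO in RV. Without both animals, Ccne1 was at -0.85 in LV and -0.13 in RV and Bub1 at -0.27 in LV (cKO against WT), and Mki67 against cKO was at 0.79 (3E13) and 0.61 (6E13) in LV and at 0.70 and 0.99 in RV. With sex as a covariate Mki67 in 6E13 RV was at 0.000937 against cKO. With 1 library left out, Ccne1 ranged from -0.48 to 0.73 in LV and from -0.51 to 0.55 in RV, and Mki67 from -1.28 to 0.17 (3E13, LV), from -0.68 to 0.29 (3E13, RV) and from -0.75 to 0.58 (6E13, RV).

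For the pairing of RV with LV by animal, the fit with no replicate block called 0 members in each of the 3 ventricle comparisons, as did the fit with the block, so the block changed no call.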
